A study of Homo sapiens with 2 samples.

Results

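ILC3 and TH17 cytokine and receptor genes were examined in the established human cell line SU-DHL-1, which derives from an anaplastic large cell lymphoma (ALCL) and bears the fusion gene NPM1-ALK. Innate lymphoid cells of type 3 (ILC3) and T-helper cells of type 17 (TH17) share a program driven by IL23 and IL1. IL23 signals through its receptor to STAT3, and the cells respond with IL17, IL22 and related cytokines. ALCL cells carry parts of this program, and an origin from ILC3 has been discussed. The 10 genes were listed by their role: the cytokine genes IL17A, IL17F, IL22, IL26, CSF2 and LTB, and the receptor genes IL23R, IL1R1, KIT and NCR2. Of these, 9 had at least 1 probe set that the array annotation assigned to them alone, 17 probe sets in all, out of 19775 genes with 41091 such probe sets. CSF2 was not analysed here.

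The cells had been transfected by electroporation with siRNA directed at HLX, an NKL homeobox gene (siHLX), or with a non-targeting control siRNA (siCTR). Each treatment was measured on 1 Affymetrix HG-U133 Plus 2.0 array, so there was no replicate error and no test, and the values below describe these 2 arrays of 1 cell line. Levels are log2 intensities, and a difference is the siHLX level minus the siCTR level. HLX itself read 7.70 with siHLX and 8.15 with siCTR, a difference of -0.45 (0.73-fold).

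The brightness of a probe set depends on its probes as well as on the amount of RNA, so levels are not ranked between genes. As a reading of background, 17 genes of other tissues, such as those for albumin, insulin and cardiac myosin, were used. Their 31 probe sets lay between 2.84 and 6.85 across both arrays. The labelled cell type was visible in its markers: the 9 probe sets of TNFRSF8 (CD30), ALK, IL2RA, BATF3, GZMB and PRF1 lay between 9.36 and 13.41 with siHLX and between 9.53 and 13.39 with siCTR. A second limit, the median level of 4.865 of all probe sets, was used to decide which genes entered counts, and a gene's brightest probe set stood for it there. IL26, LTB, IL1R1 and NCR2 passed it.

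IL26 and IL1R1 were the members with a reading above the range of the tissue genes, whereas the other 15 probe sets, including the dimmer probe set of IL1R1, read within or below this range on both arrays. No member differed by 2-fold between the arrays: 0 of the 4 members above the level threshold did so, against 0.832% of the 12135 genes tested. On their brightest probe sets 0 of 4 reached 1.5-fold, against 5.04%. Another probe set of NCR2 above the threshold, 217493_x_at, was 1.60-fold. Of these 4 members 1 was higher and 3 were lower with siHLX, where 47.4% of all tested genes were higher and 50.2% lower by any amount. LTB and NCR2, which entered these counts, lay within the range of the tissue genes. The median difference of the 4 members was -0.095, beside -0.01 for all tested genes. Over all 17 probe sets, 5 were higher, 11 lower and 1 equal, with a median of -0.09 and 0 at 2-fold. Among all single-gene probe sets, 46.8% were higher, 49.4% lower and 1.33% at 2-fold, and the median was 0.0. In these bulk samples, fewer cells that express a gene and less of its RNA per cell cannot be told apart.

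**Figure D1:**
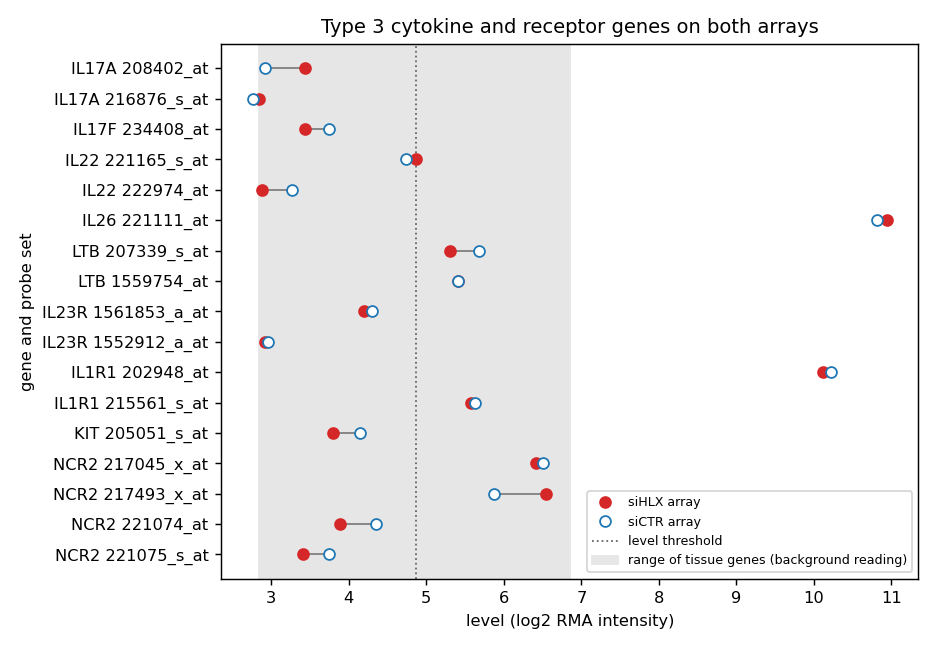
Level on the siHLX array (filled) and on the siCTR array (open) of the 17 probe sets of 9 member genes (y axis) in log2 RMA intensity (x axis); the grey band is the range of 31 probe sets of tissue genes from 2.84 to 6.85, and the dotted line is the level threshold of 4.865. IL26 and the brighter probe set of IL1R1 lie right of the band at above 10 on both arrays, and all other probe sets lie in it or at its lower edge.

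IL26, a cytokine of the IL10 family secreted by TH17 cells and ILC3, read 10.94 with siHLX and 10.81 with siCTR on its only probe set (221111_at). The difference was 0.13, or 1.09 times the control level. To place such a value, all single-gene probe sets within 0.5 log2 units of its mean level were taken, and the share with an equal or larger difference of the same sign was computed. For IL26 this share was 13.6% of 1105 probe sets, and their differences had an SD of 0.12. IL26 thus was bright on both arrays, and its difference was about as large as the spread among probe sets of like brightness.

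The 250 bases before the annotated start of IL26 (RefSeq, GRCh38.p14, chr12:68225811-68226060, minus strand) are shown because this gene was the bright cytokine of the group. Capitals mark TAAT, the core bound by many homeodomain proteins, the class of HLX, searched on both strands as TAAT or ATTA with overlaps allowed.
IL26: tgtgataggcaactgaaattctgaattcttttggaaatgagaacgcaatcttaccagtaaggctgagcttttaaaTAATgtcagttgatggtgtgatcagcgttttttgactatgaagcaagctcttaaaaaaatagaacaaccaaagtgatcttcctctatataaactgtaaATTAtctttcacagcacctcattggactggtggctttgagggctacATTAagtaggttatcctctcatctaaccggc
There were 3 matches, from -175 to -172, -77 to -74 and -31 to -28 relative to the start. This core is frequent, and 47.4% of the 35116 promoter windows of the same length held it. Among the analysed members, the windows of IL17F and KIT and of some starts of IL1R1 held it as well. The matches describe letters only and show no binding.

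IL22, the neighbour and relative of IL26 and a cytokine that acts on epithelial cells, was not above the tissue gene range. Its brighter probe set (221165_s_at) read 4.87 with siHLX and 4.74 with siCTR, and its dimmer one (222974_at) read 2.88 with siHLX and 3.27 with siCTR. The differences were 0.13 and -0.39, with opposite signs, a size reached by 40.0% and 8.69% of probe sets of like level. Both readings thus gave no common direction for IL22.

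IL17A, the name-giving cytokine of TH17 cells, was dim on both of its probe sets. The reading of 208402_at was 3.44 with siHLX and 2.92 with siCTR, a difference of 0.52 that 4.28% of its like-level probe sets reached. The second, 216876_s_at, read 2.84 with siHLX and 2.76 with siCTR. IL17F, which forms homodimers and heterodimers with IL17A, read 3.44 with siHLX and 3.74 with siCTR (234408_at), a difference of -0.30. For IL17F 22.7% of like-level readings lay as low. The readings of both genes were at the lower end of the values seen for tissue genes, so they gave no level above background, and their signs were not read as directions.

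The promoters of IL17A (chr6:52186125-52186374, plus strand) and IL17F (chr6:52244501-52244750, minus strand) are shown for comparison with IL26, again with 250 bases before the start from RefSeq, GRCh38.p14. Capitals mark AGGTCA or its reverse complement TGACCT, a half-site bound by RORA and other nuclear receptors, and in IL17F also 1 TAAT match.
IL17A: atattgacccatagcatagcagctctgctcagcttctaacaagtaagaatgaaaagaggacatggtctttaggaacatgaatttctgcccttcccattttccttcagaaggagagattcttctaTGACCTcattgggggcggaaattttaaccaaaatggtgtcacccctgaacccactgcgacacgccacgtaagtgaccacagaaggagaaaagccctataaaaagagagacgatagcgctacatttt
IL17F: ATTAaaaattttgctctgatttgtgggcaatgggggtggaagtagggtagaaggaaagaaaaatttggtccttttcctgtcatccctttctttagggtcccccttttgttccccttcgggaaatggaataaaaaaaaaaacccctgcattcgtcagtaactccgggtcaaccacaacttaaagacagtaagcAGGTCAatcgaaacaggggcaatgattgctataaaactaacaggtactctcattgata
The half-site lay from -126 to -121 in IL17A and from -58 to -53 in IL17F, and 12.1% of all promoter windows held it. The window of IL26 had no such match. In NCR2 (chr6:41335558-41335583, plus strand) the half-site lay from -40 to -35, shown with its flanks.
NCR2: cctcaggggtAGGTCAtggtggggag
A STAT-type motif, TTCNNNGAA, which reads the same on both strands, was found in 6.57% of all windows. Among the analysed members it was present in LTB (chr6:31582572-31582600, minus strand) and at 1 of the 4 annotated starts of IL1R1 (chr2:102142249-102142277, plus strand), and is shown in capitals.
LTB: tcttccccagTTCAGAGAAcccaggcatc
IL1R1: tgatccctttTTCACAGAAgaggaaacgg
The AP1 motif TGANTCA, held by 6.57% of windows as well, was absent from the windows of all members with a promoter entry. IL22 and IL23R had no entry in the table used. Absence of a match says only that these letters were not in this window.

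LTB, a membrane-bound cytokine of the TNF family that lymphoid tissue inducer cells use to organise lymph nodes, lay above the level threshold but within the tissue gene range. Its probe set 207339_s_at read 5.31 with siHLX and 5.68 with siCTR, a difference of -0.37 (0.77-fold). The other, 1559754_at, read 5.41 on both arrays. At this brightness the SD of like-level probe sets was 0.42, and 18.8% of them lay as far down as 207339_s_at.

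IL1R1, the signalling receptor for IL1 that is prominent on ILC3, was the bright receptor of the group. The probe set 202948_at read 10.12 with siHLX and 10.22 with siCTR, a difference of -0.10 (0.93-fold). This size was reached by 24.3% of 1702 like-level probe sets, whose SD was 0.14. The dimmer probe set 215561_s_at read 5.57 with siHLX and 5.63 with siCTR. Both differences were negative and smaller than the SD of like-level probe sets.

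IL23R, the specific chain of the IL23 receptor, read 4.20 with siHLX and 4.30 with siCTR on 1561853_a_at, and 2.92 with siHLX and 2.96 with siCTR on 1552912_a_at. The readings were dim, and their differences of -0.10 and -0.04 were within the spread, a size reached by 44.8% and 45.9% of like-level readings. KIT, the receptor for stem cell factor and a marker of ILC3 and their precursors, read 3.79 with siHLX and 4.15 with siCTR (205051_s_at). Its difference was -0.36, and 22.2% of like-level readings lay as low. KIT also marks mast cells, whose markers TPSAB1, CPA3 and HDC lay between 3.41 and 5.16 with siHLX and between 3.89 and 4.69 with siCTR.

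NCR2, which encodes the activating receptor NKp44 of ILC3 and NK-cells, was read by 4 probe sets that disagreed. The brighter ones carry the suffix _x_at, given to probe sets that may also bind other transcripts. Of these, 217045_x_at read 6.42 with siHLX and 6.51 with siCTR, whereas 217493_x_at read 6.55 with siHLX and 5.87 with siCTR. This difference of 0.68, which is 1.60 times the control level, was the highest of all member probe sets and was reached by 2.38% of those of like level. The 2 dimmer probe sets pointed the other way: 221074_at read 3.89 with siHLX and 4.35 with siCTR, and 221075_s_at read 3.41 with siHLX and 3.74 with siCTR, differences of -0.46 and -0.33. With 1 reading higher and 3 lower, no direction was given for NCR2.

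**Figure D2:**
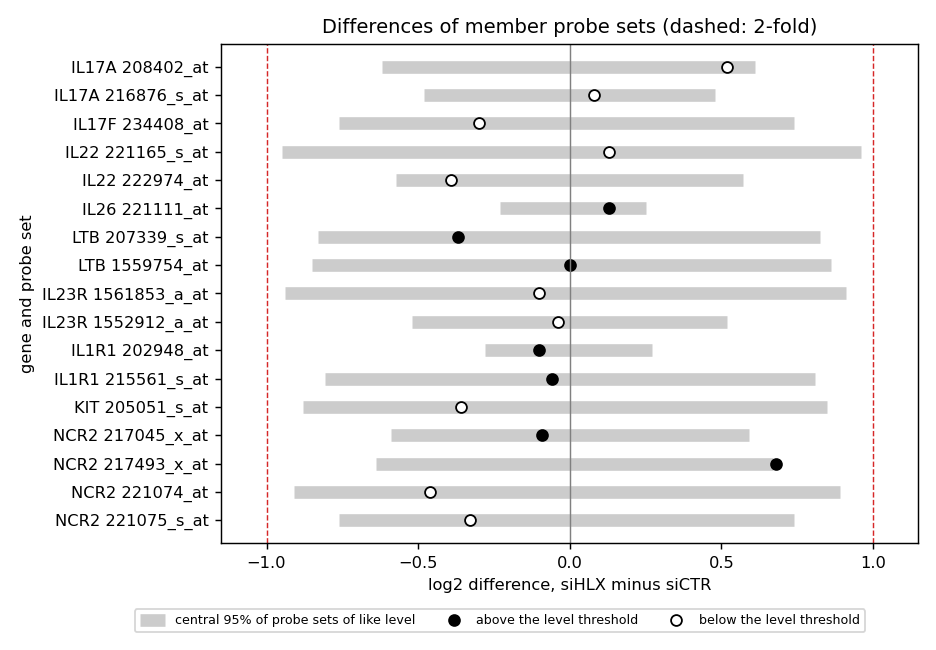
Level with siHLX minus level with siCTR (x axis, log2) of the 17 member probe sets (y axis), filled above and open below the level threshold; grey bars hold the central 95% of differences of probe sets of like level, and dashed lines mark 2-fold. The differences run from -0.46 to 0.68, and 217493_x_at of NCR2 at 0.68 is the only one beyond the end of its bar.

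The receptors and ligands around the members were described next, from 5 lists of partner genes. Of 70 listed genes 67 had a probe set, and 22 of these read above the tissue gene range on both arrays. Among the partners above the level threshold, 23 of 37 were higher, 13 lower and 1 equal with siHLX, where 47.4% of all tested genes were higher and 50.2% lower. Their median was 0.07 beside -0.01 for all tested genes. When each gene's probe sets were averaged, 17 were higher and 17 lower, so the split between higher and lower depended on reading the brightest probe set. At least 2-fold apart was 1 of the 37, IL19, against 0.832% of all tested genes.

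The IL1 receptor system was bright in its receptors and dim in its ligands. IL1RAP, the co-receptor of IL1R1, read 10.68 with siHLX and 10.60 with siCTR on its brightest probe set. Its other probe set, 210233_at, read 9.64 with siHLX and 9.06 with siCTR, a difference of 0.58 that 0.15% of like-level probe sets reached. Both IL1RAP readings thus were higher, by unequal amounts. IL1R2, a decoy receptor that binds IL1 without signalling, read 11.49 with siHLX and 11.13 with siCTR on 205403_at, a difference of 0.36 that was reached by 1.11% of its like-level probe sets. Its second probe set differed by 0.10. IL1B read 5.23 with siHLX and 5.31 with siCTR on its brighter probe set. Its other probe set, 39402_at, was below the level threshold and differed by -0.76, a size reached by 6.04% of like-level probe sets. The receptor antagonist IL1RN read 5.12 with siHLX and 5.74 with siCTR on its brightest probe set, while its next one differed by 0.45. These ligand genes lay within the range of the tissue genes.

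For IL26 and IL22 the receptor chains were dim or lower. IL10RB, shared by the receptors for IL10, IL22 and IL26, read 6.03 with siHLX and 6.87 with siCTR. This difference of -0.84, or 0.56 times the control level, was matched by 0.44% of like-level probe sets, and it rests on 1 probe set that lay inside the tissue gene range with siHLX and just above it with siCTR. IL20RA, the second chain for IL26, read 4.69 with siHLX and 4.87 with siCTR, and IL22RA1, the second chain for IL22, 3.89 with siHLX and 4.15 with siCTR. Of the relatives, IL10 was bright, with 9.07 on the siHLX array and 9.15 on the siCTR array. IL19 read 4.35 with siHLX and 5.47 with siCTR, a difference of -1.12, and with a mean level of 4.91 it lay close to the threshold.

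The remaining receptors showed small or uncertain differences. IL17RA, the common chain for IL17A and IL17F, read 8.38 with siHLX and 8.21 with siCTR. Its other probe sets differed by 0.12, -0.06 and 0.46. The partner chain IL17RC read 6.25 with siHLX and 6.43 with siCTR, and its other probe sets differed by -0.13, -0.68 and -0.15. IL12RB1, which pairs with IL23R, read 7.64 with siHLX and 7.37 with siCTR on its brightest probe set and was lower on its dimmer ones, with -0.06 and -0.63. The IL23 subunit gene IL23A was below the threshold and read 4.35 with siHLX and 4.87 with siCTR on its brightest probe set. Its other probe sets, also below the threshold, differed by -0.80, -0.36 and -0.13. LTBR, the receptor for lymphotoxin, read 7.16 with siHLX and 6.71 with siCTR, a difference of 0.45, while its 3 dimmer probe sets differed by -0.23, -0.23 and -0.21. LTA, the partner of LTB, the stem cell factor gene KITLG, the NCR2 adaptor gene TYROBP and the receptor genes CSF2RA and CSF2RB were all below the level threshold, with differences between -0.80 for CSF2RA and 0.35 for LTA.

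**Figure D3:**
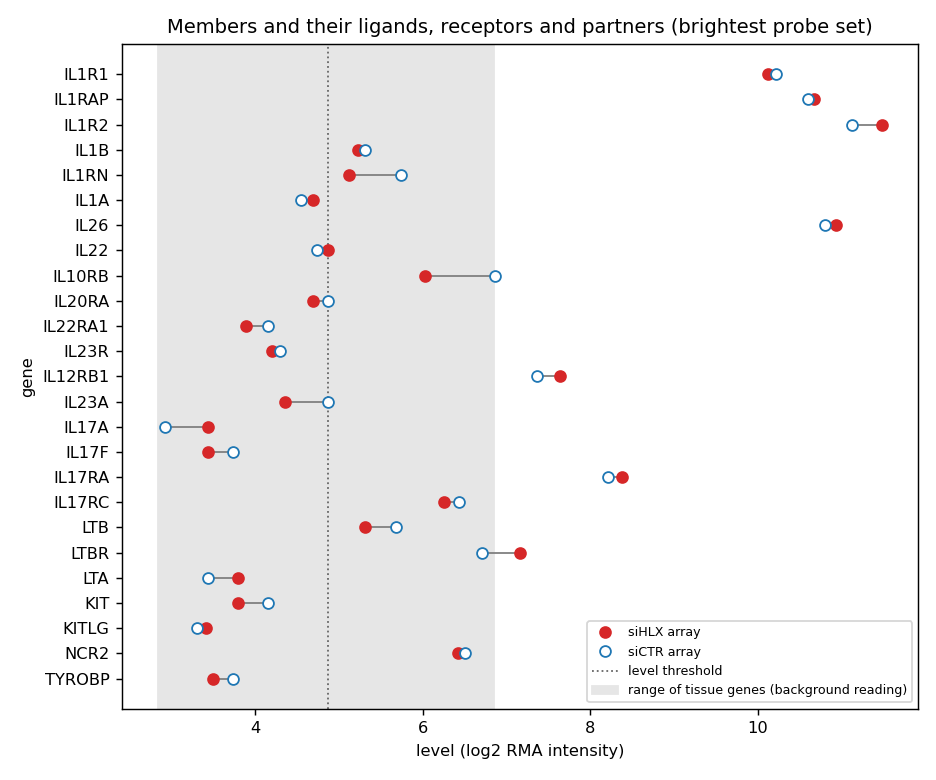
Level on the siHLX array (filled) and the siCTR array (open) in log2 RMA intensity (x axis) of members and of their ligands, receptors and partners (y axis, brightest probe set of each gene), with the tissue gene range in grey and the level threshold dotted. IL1R1, IL1RAP, IL1R2 and IL26 lie above 10 on both arrays, and among the genes plotted IL10RB has the widest gap, with 6.03 on the siHLX array and 6.87 on the siCTR array.

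Transcription factors of the program were bright in 7 of 10 genes with a probe set, relative to the tissue gene range, and of the 8 that passed the level threshold 6 were higher and 2 lower with siHLX, beside 47.4% and 50.2% of all tested genes. RORA, a nuclear receptor that supports TH17 differentiation, was higher on all 5 of its probe sets above the threshold. Their mean difference was 0.31, with an SD of 0.20 that is a spread between probe sets and not between samples. Its brightest probe set read 10.57 with siHLX and 10.31 with siCTR, a size reached by 2.87% of like-level readings. BHLHE40, a factor that supports cytokine production in ILC3 and TH17 cells, read 11.33 with siHLX and 11.08 with siCTR on its brighter probe set, and the other differed by 0.38. STAT3 read 11.55 with siHLX and 11.49 with siCTR, NFIL3 11.35 with siHLX and 11.41 with siCTR, and IRF4 9.79 with siHLX and 9.91 with siCTR. For STAT3 and IRF4 1 dimmer probe set each took the other sign, with -0.02 for STAT3 and 0.30 for IRF4. ID2 and HHEX, counted as higher with 0.07 and 0.13, had the other sign on their dimmer probe sets, with -0.26 and -0.23. For ID2 the size of -0.26 was reached by 2.06% of like-level readings. AHR, the sensor of aryl compounds that drives IL22 in ILC3, was dim, with 2.88 with siHLX and 3.04 with siCTR. TCF7 was not analysed here.

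Inducing cytokines and their receptors had 7 members higher and 4 lower of the 11 above the threshold, beside 47.4% and 50.2% of all tested genes, and a median of 0.07. TGFBR2 was among the higher ones with 9.54 on the siHLX array and 9.25 on the siCTR array, whereas TGFB1 read 8.05 with siHLX and 8.26 with siCTR on its brightest probe set. The other TGFB1 probe set, 203084_at, read 5.96 with siHLX and 5.31 with siCTR, so no direction was given for TGFB1. Of the other ILC3 and TH17 markers above the threshold 4 of 5 were higher and 0 lower, beside the same 47.4% and 50.2%, by amounts of 0.01 to 0.25. The markers below the threshold mostly had the other sign. KLRB1 differed by -0.94, TNFSF11 by -0.69, IL4I1 by -0.40 and CCR6 by -0.09, whereas CXCR5 differed by 0.25. CCL20, the chemokine by which TH17 cells attract CCR6-positive cells, read 11.37 with siHLX and 11.12 with siCTR, a size reached by 1.74% of like-level readings. TNFRSF25, a receptor of the TNF family, read 4.96 with siHLX and 4.78 with siCTR, close to the threshold. TIMP1 read 13.60 with siHLX and 13.59 with siCTR, and CARD19 8.73 on both arrays. Among ligands and relatives, 4 of 9 were higher and 5 lower, again beside 47.4% and 50.2% of all tested genes. IL13 read 5.37 with siHLX and 4.45 with siCTR, TNFSF14, a further ligand of LTBR, 5.12 with siHLX and 4.74 with siCTR, and IL17D 5.54 with siHLX and 5.96 with siCTR. These 3 genes lay within the tissue gene range.

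**Figure D4:**
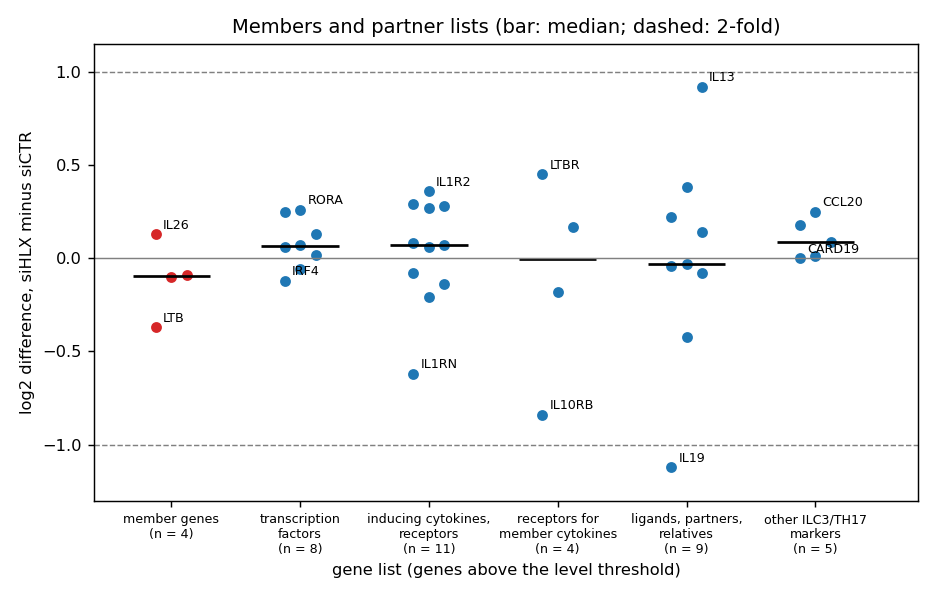
Level with siHLX minus level with siCTR (y axis, log2) of genes above the level threshold, 1 point per gene, in the member genes (red) and in 5 partner lists (blue, x axis); bars are medians and dashed lines mark 2-fold. The members run from -0.37 for LTB to 0.13 for IL26, and IL19 at -1.12 is the only gene past 2-fold.

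The differences above are relative to the scaling of the deposited values. Poly-A control transcripts, which are added before labelling, were lower with siHLX on 23 of 24 probe sets, by a mean of -0.29. When the arrays were scaled to the same mean of these controls, every difference moved up by the same amount, and the median of all tested genes was 0.28. The differences were then 0.42 for IL26 and 0.19 for IL1R1. The part of the controls in these values was not tested.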

How the data were processed

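Total RNA of SU-DHL-1 cells had been labelled as biotinylated cRNA and hybridised to 2 HG-U133 Plus 2.0 arrays, 1 per siRNA; groups follow the treatment in the labels. The authors deposited log2 intensities for each probe set after RMA background correction and quantile normalisation with limma and affy (versions not given in the sources used here), with 2 decimals. Quantile normalisation hides a change shared by most transcripts. The ratios to the sample mean named in the methods were not applied in these values.

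Leaving out controls, the platform annotation gave 1 gene for 41091 of 54613 probe sets, several for 1801 and none for 11721, and 41037 were found by Entrez identifier in RefSeq (GRCh38.p14), with 0 symbols changed. Members were all single-gene probe sets of the 10 genes. Genes were read by the brightest probe set and counted at a mean level of at least 4.865. With 1 array per group no p-value was computed, and the number of arrays limits the precision. All members were named. Of each partner list the 2 highest and 2 lowest genes, the direct ligands and receptors and selected factors were named. The members and lists were chosen with earlier results of these data known, and the motifs after values were seen. Differences of 2-fold or more were counted. Scaling, trend removal (lowess, fraction 0.2), probe set choice, the level threshold (also the 75th percentile, 7.095) and a 1.5-fold limit were varied. The steps were tested on simulated data. Python 3.11.15, pandas 2.3.3, numpy 2.4.6 and statsmodels 0.14.6 were used.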

Additional observations from a re-analysis of the deposited data

How the results depend on the processing

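With the brightest probe set above the level threshold, 0 members were 2-fold apart, and this count was also 0 under each alternative: median centring, lowess, quantile normalisation, equal poly-A controls, averaging a gene's probe sets, leaving out those ending in _s_at or _x_at, no threshold, the 75th percentile and the 1.5-fold limit. The deposited values were already quantile normalised, and both arrays had a median of 4.87. Median centring and quantile normalisation could therefore change little in this count or in the differences below. The median difference of the members was -0.095. It was 0.19 with equal poly-A controls, a setting that added the same amount to every gene. In that setting 3 of the 4 members were higher and 1 lower. At the 75th percentile, which left only IL26 and IL1R1, the median was 0.015, with 1 higher and 1 lower. Without probe sets ending in _s_at or _x_at the median was 0.0 over 3 members, 1 of them higher and 1 lower. The median of the partner genes was 0.07, and -0.015 with the mean of all probe sets. With equal poly-A controls it was 0.36, with 33 of 37 partner genes higher and 4 lower. Of 53 differences of single members under alternatives, 49 lay within 1 SD of like-level probe sets from the value given and 4 moved further: IL26 to 0.42 and IL1R1 to 0.19 with equal poly-A controls, and IL22 to -0.39 and NCR2 to -0.46 without probe sets ending in _s_at or _x_at. No paired analysis was possible because there was 1 array per group and the labels carry no replicate numbers. No array could be left out. For 7 of the 9 members no reading lay above the tissue gene range, so no fall was read in them. The top of that range, 6.85, came from 1 probe set of ALB on the siHLX array. The medians of the tissue gene probe sets were 4.15 with siHLX and 4.35 with siCTR. LTB and the brighter probe sets of NCR2 were among the readings above these medians, and whether they exceed background was not tested.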
